A study of Mus musculus with 98 samples.

Results

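Axon guidance molecules were measured in the stroma of the mouse thymus, taken as all genes of the single-cell count table whose symbols belong to the semaphorins and their plexin and neuropilin receptors, the ephrins and Eph receptors, the Slits and Robos, or the netrins and their Unc5 receptors. The rule uses names alone and no measured value. It gave 67 of 22231 genes. They are 7 secreted semaphorins, 13 membrane-bound semaphorins, 9 plexins, 2 neuropilins, 5 ephrin-A and 3 ephrin-B ligands, 9 EphA and 5 EphB receptors, 3 Slits, 4 Robos, 3 netrins and 4 Unc5 receptors. The newborn table held 66 of them, all but Epha10, and 66 passed the filter on low counts of the bulk data.

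Guidance molecules were first described as signals that attract or repel growing axons, and many of them also steer migrating cells and growing vessels. A cell that displays or secretes the ligand (a semaphorin, ephrin, Slit or netrin) changes the cytoskeleton and adhesion of a neighbour that carries the receptor. In blood vessels ephrin-B2 (Efnb2) is a classical marker of arteries and its receptor EphB4 (Ephb4) of veins, neuropilins are shared between class 3 semaphorins and VEGF, and Robo4 is a Robo receptor of endothelial cells.

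The study held 3 sets of samples, here counted in libraries. The age series held sorted Ter119-CD45-EpCAM- nonepithelial thymic stroma (NETS) of WT mice, from E12.5 (1 library) and E13.5 (1), and with 2 libraries for every later age, namely E16.5, P0 and 4 weeks (W4). The newborn set held Ter119-CD45- cells of 3 Tbx1+/-Crkl+/- mice (HET) and 3 WT littermates at P0, the heterozygotes carrying 1 inactive germline allele of each gene in every cell, and these cells were preserved in RNAprotect before capture. The bulk set held 84 libraries of sorted WT populations, 6 per population and age. The NETS was sorted into a CD31+ gate of endothelium, a Ly51+gp38- gate of mural cells and a pair of fibroblast gates, gp38+CD26+ and gp38+CD26-. The epithelium was sorted into cortical (cTEC) and medullary (mTEC) thymic epithelial cells at P0 and W4, and mTEChi and mTEClo at W4 alone.

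The age series gave 28583048 to 93040640 UMIs per library over 36208 cells. The newborn set gave 4978011 to 31418527 over 21451 cells, and the bulk libraries used held 5785352 to 15852166 counts. Median UMIs per cell were 2391 to 2551 in the HET libraries and 2577 to 4686 in WT, and 1 bulk library (gp38+CD26+ at W4, 25702 counts) was left out. Endothelial, smooth muscle, mesothelial and neural crest marker lists were highest in the deposited subtypes they name. The pericyte list was higher in vascular smooth muscle (VSM, 6272 CPM summed over the list) than in pericytes (Pc, 3931 CPM), and the fibroblast list ranged from 5745 to 21990 CPM over the 11 fibroblast subtypes with 10569 CPM in mesothelium. The cells of the age series carried 36053 distinct barcodes and those of the newborn set 21407, so few were shared between libraries. Tbx1 gave 0, 0 and 8 UMIs in the HET libraries and 13, 6 and 19 in WT, whereas Crkl was 23.6 to 26.9 CPM in HET and 18.4 to 25.1 CPM in WT, so the count of Crkl did not mark the genotype.

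The guidance genes differed in the subtype that held their highest level. The authors defined the subtypes by clustering these same counts, so levels over subtypes are a description and were not tested. Levels are given as counts per 1000000 UMIs (CPM) summed over the cells of a subtype in each library, as mean ± SD over the libraries of the age series, so that the SD includes differences between ages. In 49 of 67 genes at least 1 subtype of the age series averaged 20 CPM or more, and 18 stayed under this level in all of these nonepithelial subtypes. Of these 18, Sema4b averaged 57.8 CPM in the epithelium of WT newborns. The highest subtype lay among the fibroblasts for 17 genes, in endothelium for 14, in neural crest cells (NC) for 9, in mural cells (Pc and VSM) for 5 and in mesothelium (Mes) for 4. These counts are a description, since a gene could enter them through its highest subtype alone: Sema3e (33 UMIs in NC), Sema4f (25 UMIs), Sema4d (24.6 CPM) and Plxnb3 (21 CPM) reached 20 CPM in no subtype but NC. The newborn set was compared over the subtypes that the age series also holds, so its epithelium was left out. Within these the same subtype was highest for 29 of the 49 genes and the same lineage for 38. Plxnb1, counted as the same, averaged 105.4 CPM in WT newborn epithelium and 45.8 CPM in WT newborn mural cells.

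**Figure D1:**
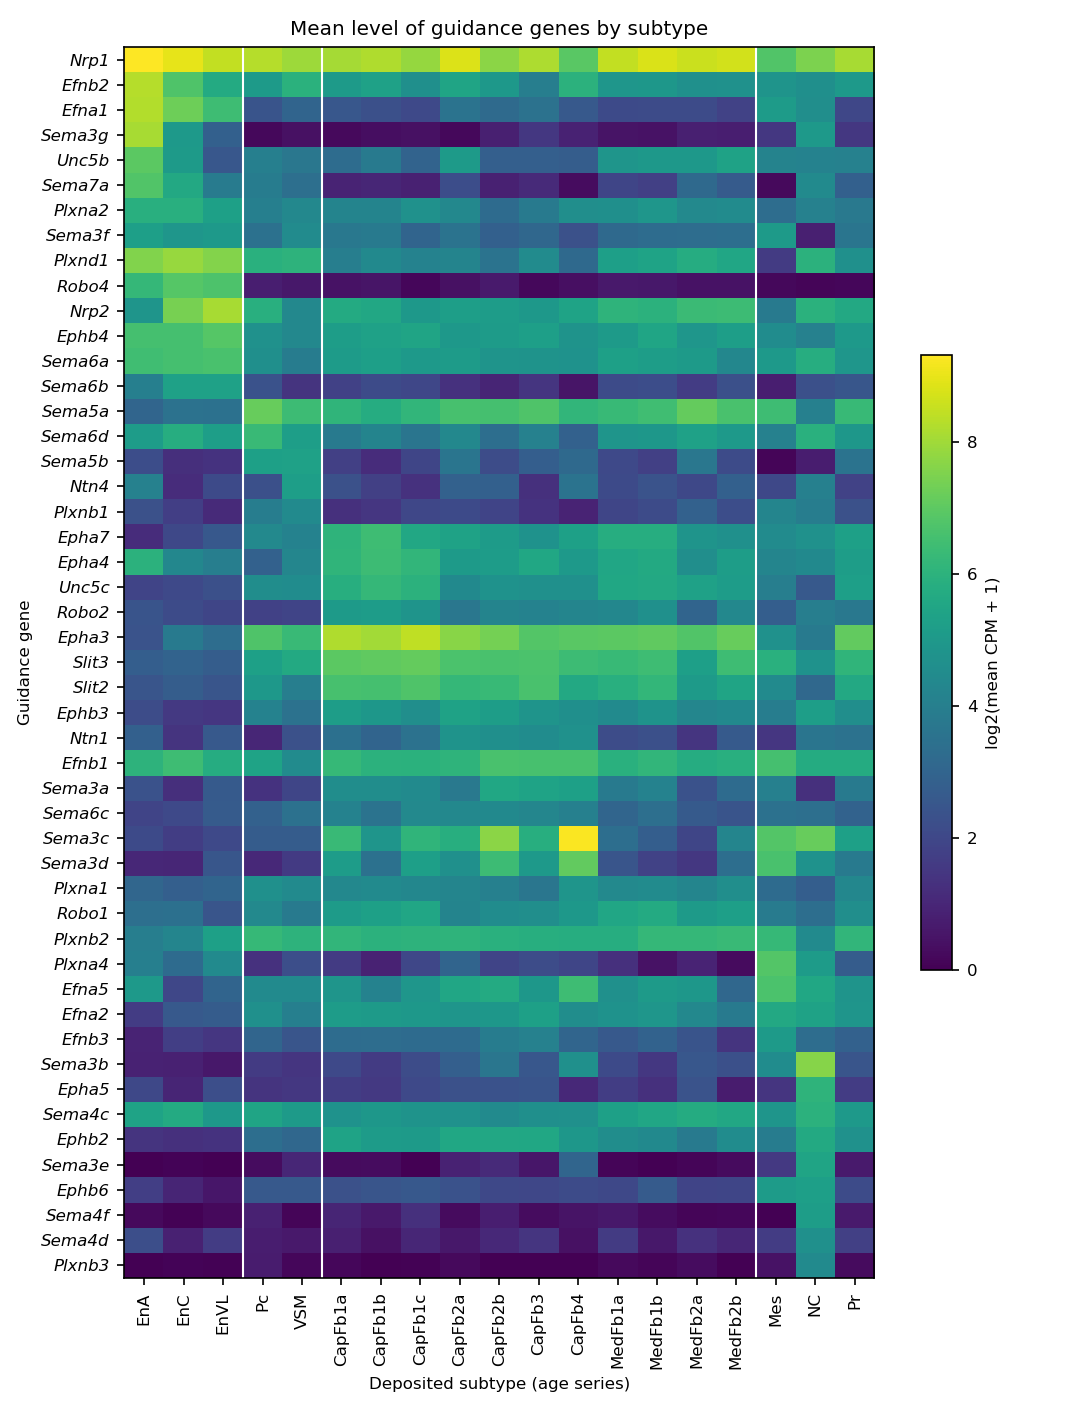
Mean level of the 49 guidance genes that reached 20 CPM in a subtype (rows) over the 19 deposited subtypes of the age series (columns), as log2(mean CPM + 1) over up to 8 libraries. The 14 genes at the top are highest in arterial (EnA), capillary (EnC) or venous and lymphatic (EnVL) endothelium, and the 9 at the bottom in neural crest cells.

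Arterial endothelium led in 8 genes. Efnb2 averaged 312 ± 55.5 CPM in EnA (n = 8), against 106.98 ± 23.8 CPM in EnC, and its 8 EnA libraries ranged from 268 to 439 CPM while those of EnVL ranged from 33.7 to 75.5 CPM. Efna1, an ephrin-A ligand, stood at 307 ± 135.8 CPM in EnA and 154 ± 30.3 CPM in EnC. Unc5b, a netrin receptor of arteries and sprouting vessels, was 125.4 ± 43.3 CPM in EnA and 4.79 CPM in EnVL. Nrp1, a co-receptor of class 3 semaphorins and VEGF, was also high outside the vessels: 641 ± 212 CPM in EnA, 504 ± 304 CPM in EnC and 451 ± 189 CPM in CapFb2a fibroblasts, which overlap in their spread.

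Among the receptors, Ephb4, which binds ephrin-B2, averaged 115.4 ± 19.8 CPM in EnVL, 95 ± 28.9 CPM in EnA and 94.4 ± 24.3 CPM in EnC. These spreads overlap and include differences between ages, and the 3 endothelial subtypes were not compared library by library. The next subtype, MedFb1b, reached 43.4 ± 20.6 CPM. Nrp2, the neuropilin of veins and lymphatics, ranged from 190 to 375 CPM in EnVL, from 100.4 to 241 CPM in EnC and from 6.25 to 60 CPM in EnA, so that EnA stood apart and EnC overlapped EnVL. Plxnd1, a plexin receptor of vessels, was 236 ± 56.7 CPM in EnC and 186.8 ± 72.4 CPM in EnA. Robo4 averaged 117 ± 34.6 CPM in EnC, and the highest subtype outside endothelium was Pc with 0.736 ± 0.809 CPM.

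The start-site sequences of 4 of the endothelial genes are shown as examples that hold the motif GGAAG, chosen after the matches were counted. GGAAG is a core motif of ETS factors, which act in endothelial cells. Each is the 250 bases before the first listed RefSeq start in GRCm38.p6, given 5′ to 3′ on the gene's strand, with GGAAG and its reverse complement CTTCC in capitals: Robo4 at chr9:37401722-37401971 (+), Sema3g at chr14:31217623-31217872 (+), Ephb4 at chr5:137349859-137350108 (+) and Efna1 at chr3:89280952-89281201 (-).
Robo4: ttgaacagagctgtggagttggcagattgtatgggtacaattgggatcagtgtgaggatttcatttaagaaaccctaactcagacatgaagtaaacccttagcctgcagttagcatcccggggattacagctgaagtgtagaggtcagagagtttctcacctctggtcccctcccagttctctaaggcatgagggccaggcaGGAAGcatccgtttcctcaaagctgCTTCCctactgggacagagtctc
Sema3g: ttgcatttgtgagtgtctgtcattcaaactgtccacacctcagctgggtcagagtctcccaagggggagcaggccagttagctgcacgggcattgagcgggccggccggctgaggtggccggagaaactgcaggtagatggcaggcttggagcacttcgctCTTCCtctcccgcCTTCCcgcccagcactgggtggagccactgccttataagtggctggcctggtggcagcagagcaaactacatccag
Ephb4: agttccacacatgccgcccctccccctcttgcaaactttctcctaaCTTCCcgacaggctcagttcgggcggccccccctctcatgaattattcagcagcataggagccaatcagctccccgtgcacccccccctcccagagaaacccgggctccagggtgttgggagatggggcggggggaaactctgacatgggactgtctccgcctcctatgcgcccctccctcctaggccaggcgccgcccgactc
Efna1: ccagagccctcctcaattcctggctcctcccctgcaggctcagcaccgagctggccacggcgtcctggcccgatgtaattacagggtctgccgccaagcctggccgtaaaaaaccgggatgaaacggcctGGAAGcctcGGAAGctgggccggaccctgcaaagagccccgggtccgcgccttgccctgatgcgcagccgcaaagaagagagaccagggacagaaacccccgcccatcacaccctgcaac
Robo4, Sema3g and Efna1 held 2 matches each and Ephb4 held 1. Efnb2, Nrp2, Plxna2, Sema6b, Sema7a and Unc5b, also highest in endothelium, held 0. Among 27025 RefSeq promoters 63.6% held at least 1 match, of the 58 guidance genes with an entry 67.2% did, and of the 12 with an entry that were highest in endothelium 50% did. A match describes these letters only.

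Fibroblasts, with capsular (CapFb) and medullary (MedFb) subtypes, were highest for Slit2, Slit3, Robo1 and Robo2 and for Sema3c and Sema3d. Sema3c, a secreted semaphorin, was 618 ± 324 CPM in CapFb4 and 209 ± 117 CPM in CapFb2b, and its CapFb4 libraries read 149.2 CPM at E12.5, 62.1 at E13.5, 812 and 825 at E16.5, 872 and 844 at P0, and 715 and 661 at W4. The 2 earliest libraries were the low ones. Sema3d, a close relative, was 133.7 ± 71 CPM in the same CapFb4 cells.

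Epha3 averaged 344 ± 159 CPM in CapFb1c and 4.25 CPM in EnA. The same CapFb1 group held the highest means of Slit2 (106 ± 25.5 CPM), Slit3 (137.2 ± 79.2 CPM), Epha7 (86.3 ± 79 CPM in CapFb1b), Unc5c (73.1 ± 51.7 CPM) and Robo2 (34.9 ± 26.6 CPM). Slit2 and Slit3 are secreted ligands of the Robo receptors, and both averaged under 7 CPM in EnA, EnC and EnVL, where single libraries reached 21.7 CPM (Slit3 in EnA). Within the fibroblasts these genes were graded rather than restricted: Slit2 in CapFb3 averaged 99 ± 55.2 CPM. Robo1 was the one Robo with its highest mean in the medullary group, at 51.1 ± 15.8 CPM in MedFb1b, next to 44.9 ± 15.5 CPM in MedFb1a.

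Mural cells were highest for Sema5a (141 ± 67.4 CPM in Pc, level with 139.1 ± 67.7 CPM in MedFb2a), Sema6d, Sema5b (39.5 ± 29.4 CPM in VSM and 38.1 ± 17.7 CPM in Pc), Plxnb1 and Ntn4. Ntn4, a netrin of basement membranes, averaged 36.6 ± 52.3 CPM in VSM, and the spread came from age: 5.82 CPM at E12.5, 0 at E13.5, 10.6 and 7.97 at E16.5, 11.9 and 15 at P0, and 125.2 and 117 at W4. Mesothelium held Plxna4 (114 ± 46.9 CPM, n = 7) and Efna5 (101.2 ± 26.8 CPM, n = 7, with 84.8 ± 9.8 CPM in CapFb4). Neural crest cells were highest for Sema3b (200 ± 97.9 CPM, against 25 ± 16.6 CPM in CapFb4), Epha5, Ephb6, Sema4d, Sema4f, Plxnb3 and Sema3e. Only 7 NC cells were captured in each W4 library and 10 in each E16.5 library, so the later values of this subtype rest on few cells. Ephb6 was highest in mesothelium instead in the newborn set without its epithelium, with cells pooled over libraries and with at least 20 cells per library.

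Sorted bulk populations tested the same lineage differences with 6 libraries per group, 5 for gp38+CD26+ at W4. The labels used here do not say which libraries share a mouse. Their sample numbers follow the same spacing in each population of an age, so libraries may be matched across gates. No fit used such matching, and the tests treat all libraries as independent. In the comparison of CD31+ cells with the mean of the other 3 NETS populations, edgeR's quasi-likelihood test (adjusted p under 0.05 and at least a 2-fold change) called 38 of 66 guidance genes at P0, 18 higher (11.8% of all genes tested) and 20 lower (10.2%). At W4 it called 37, 16 higher (9.77%) and 21 lower (11.1%). The median log2 fold change over the guidance genes was -0.63 at P0 and -0.75 at W4, with 0 and -0.01 over all genes. The filter on low counts ran over all bulk groups, epithelium included, so genes absent from the NETS could remain in these medians and shares. In bulk RNA fewer cells of a kind and less RNA per cell cannot be told apart, and p-values measure the spread between these libraries.

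Robo4 had 251, 477 and 576 CPM as lowest, median and highest of 6 CD31+ libraries at P0 and 312, 428 and 460 CPM at W4. In gp38+CD26+ cells it was at 0 in all 11 libraries, in gp38+CD26- cells it did not exceed 0.1 CPM, and in Ly51+gp38- cells 4 of 12 libraries held it, the highest at 25.1 CPM. The CD31+ libraries lay above all others without overlap. Efna1 ranged from 568 to 1020 CPM in CD31+ cells at P0 and from 411 to 561 CPM at W4, and the other NETS libraries reached at most 42.9 CPM (log2 fold change 5.73 ± 0.30 SE at P0, adjusted p = 8.84e-27, and 4.72 ± 0.30 at W4, adjusted p = 4.36e-22).

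Ephb4 in CD31+ cells ranged from 224 to 508 CPM at P0 against 16.3 to 128 CPM in the other NETS populations (log2 fold change 2.20 ± 0.26, adjusted p = 1.23e-10), and from 208 to 347 CPM at W4 against 8.52 to 52.1 CPM (3.0 ± 0.27, adjusted p = 2.33e-15). Its ligand Efnb2 was 55.1 to 122.4 CPM at P0 against 3.69 to 48.2 CPM, also without overlap (2.496 ± 0.37, adjusted p = 7.95e-08), and at W4 the CD31+ libraries spanned 27.8 to 114.8 CPM against 1.18 to 15.8 CPM (3.42 ± 0.38, adjusted p = 1.19e-11). Both members of the pair were thus higher in CD31+ cells, and the other populations held both at a lower level.

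On the other side, Slit2 was at 0 in all 6 CD31+ libraries at P0 and in 5 of 6 at W4, the other at 10.8 CPM. The gp38+CD26+ cells held 114, 151.2 and 182.5 CPM as lowest, median and highest at P0 and 36.8, 69.7 and 117 CPM at W4. Epha3 reached at most 8.16 CPM in CD31+ cells and 630 to 1138 CPM in gp38+CD26+ cells at P0. Epha7 gave 0.292 CPM in 1 CD31+ library at P0 and 0 in the other 11 CD31+ libraries of both ages, and Robo2 and Unc5c were at 0 in all of them. These absences are limited by depth, since 3 counts over a CD31+ group correspond to about 0.04 CPM.

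**Figure D2:**
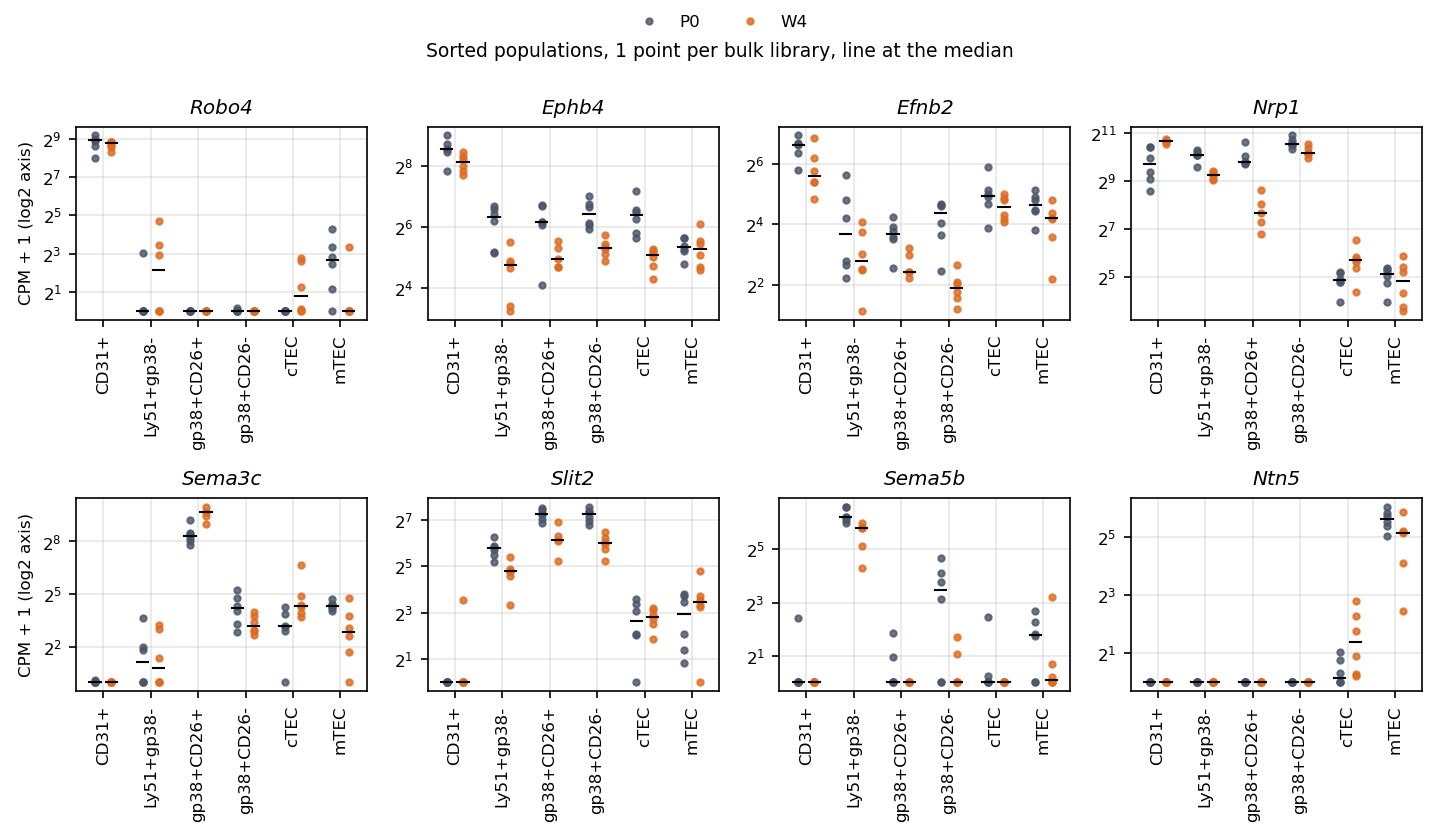
CPM + 1 on a log2 axis for 8 guidance genes in sorted populations, 1 point per bulk library (5 or 6 per group), P0 in grey, W4 in orange, black line at the median. Robo4 and Ephb4 are highest in CD31+ cells, Sema3c in gp38+CD26+ cells, Sema5b in Ly51+gp38- cells and Ntn5 in mTEC.

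Between mural and fibroblast gates, 15 of 66 genes were called at P0, 5 higher in Ly51+gp38- cells (6.38% of all genes) and 10 lower (4.01%). At W4 17 were called, 8 higher (9.43%) and 9 lower (8.08%). Sema5b, a membrane semaphorin, was 63.6, 73.2 and 96.9 CPM as lowest, median and highest in Ly51+gp38- cells at P0 and 18.8, 54.5 and 62.3 CPM at W4. The gp38+CD26+ libraries did not pass 2.58 CPM and gp38+CD26- libraries did not pass 24.9 CPM. The groups did not overlap at P0 (log2 fold change 4.85 ± 1.35, adjusted p = 0.00947). Plxnb1 was higher in Ly51+gp38- cells at both ages (5.08 ± 0.93, adjusted p = 3.8e-05, and 4.11 ± 0.90, adjusted p = 0.000349), and Sema6a was lower (-2.62 ± 0.72, adjusted p = 0.00739, and -6.99 ± 1.04, adjusted p = 2.25e-07).

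Sema3c set the 2 fibroblast gates apart. In gp38+CD26+ cells, the gate of capsular fibroblasts, it ranged from 223 to 592 CPM at P0 and from 518 to 1011 CPM at W4, and in gp38+CD26- cells from 6.27 to 37.1 CPM and from 5.53 to 15 CPM. The log2 fold change was 4.29 ± 0.95 at P0 (adjusted p = 0.00333) and 6.43 ± 1.06 at W4 (adjusted p = 1.48e-05). At P0 only 3 of 66 genes passed, 1 higher (1.32% of all genes) and 2 lower (1.75%: Epha2 and Plxnb1), and at W4 13 passed, 8 higher (2.77%) and 5 lower (2.56%). DESeq2 called 8 genes at P0. At W4 Sema3d and Efna5 joined Sema3c on the CD26+ side (7.29 ± 1.84, adjusted p = 0.00736, and 4.61 ± 1.01, adjusted p = 0.00133) and Nrp1, Plxnd1, Plxna2, Unc5b and Unc5c lay on the CD26- side.

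In epithelium most called guidance genes were higher in mTEC, as were most called genes of any kind. Of 66 genes 23 were called at P0, 1 higher in cTEC (Efna1, 1.25 ± 0.39, adjusted p = 0.0106; 4.17% of all genes) and 22 lower (24.5%), with a median log2 fold change of -1.34 against -0.44 over all genes. At W4 19 were called, 1 higher (Ntn1; 5.96%) and 18 lower (22.5%), medians -0.80 and -0.33. With calls kept only at 1 CPM or more in 3 libraries of either side, a rule added after the data were seen, 12 of the 19 were left. Ntn5, a netrin, was 32.2, 48.3 and 65.4 CPM in mTEC at P0 and at most 1.07 CPM in cTEC (-7.26 ± 0.99, adjusted p = 7.33e-07), and it was at 0 in all 47 NETS libraries. Nrp2 was 24.1, 31.1 and 50.7 CPM in mTEC and at most 4.94 CPM in cTEC (-5.44 ± 0.86, adjusted p = 8.5e-07). Between mTEChi and mTEClo 13 genes were called, 11 higher (13.1%) and 2 lower (3.44%), among them Epha6, an Eph receptor at 0 in all 6 mTEClo libraries and 1.63 to 10.5 CPM in mTEChi.

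Most guidance genes of the NETS changed over age, as did most genes. Over the 5 ages, edgeR's quasi-likelihood F test called 58 of 64 guidance genes tested in fibroblasts (80.3% of all genes), 36 of 48 in endothelium (60.8%) and 52 of 59 in mural cells (66.6%). In single subtypes it called 604 of 808 gene and subtype pairs (55.3% of all pairs). The lone E12.5 and E13.5 libraries were assumed to vary like the replicated ages. Without these 2 libraries mural cells gave 34 calls and the pairs 388. The genes with the smallest adjusted p were Efnb3, Epha7, Ntn4 and Unc5c in fibroblasts, Sema7a, Efnb1, Sema3f and Sema3g in endothelium, and Ntn4, Plxnd1, Sema6a and Nrp2 in mural cells.

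In fibroblasts each of the 8 ephrin genes was highest at E12.5 and next at E13.5, ages with 1 library each, though Efnb1 (81.3 and 79.7 CPM) and Efna1 (8.75 and 5.81 CPM) stood close to later libraries (up to 79.3 and 5.67 CPM). The same order was found in 29.7% of all genes tested in these cells and in 23 of 64 guidance genes. Efnb3 was 40.9 CPM at E12.5, 24.7 at E13.5, 2.14 and 2.57 at E16.5, 3.08 and 2.9 at P0, and 0.5 and 0.479 at W4. Efnb2 read 106, 44.6, 20.5 and 22.6, 30.3 and 27.2, and 11.5 and 9.37 CPM in the same order, and Efna4 fell from 57.3 and 30.9 CPM at E12.5 and E13.5 to between 4.1 and 6.09 CPM at the later ages. The summed fibroblast markers of the same cells were 1045 and 3225 CPM at E12.5 and E13.5 and 9785 to 22111 CPM later, and their part in these differences was not tested.

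**Figure D3:**
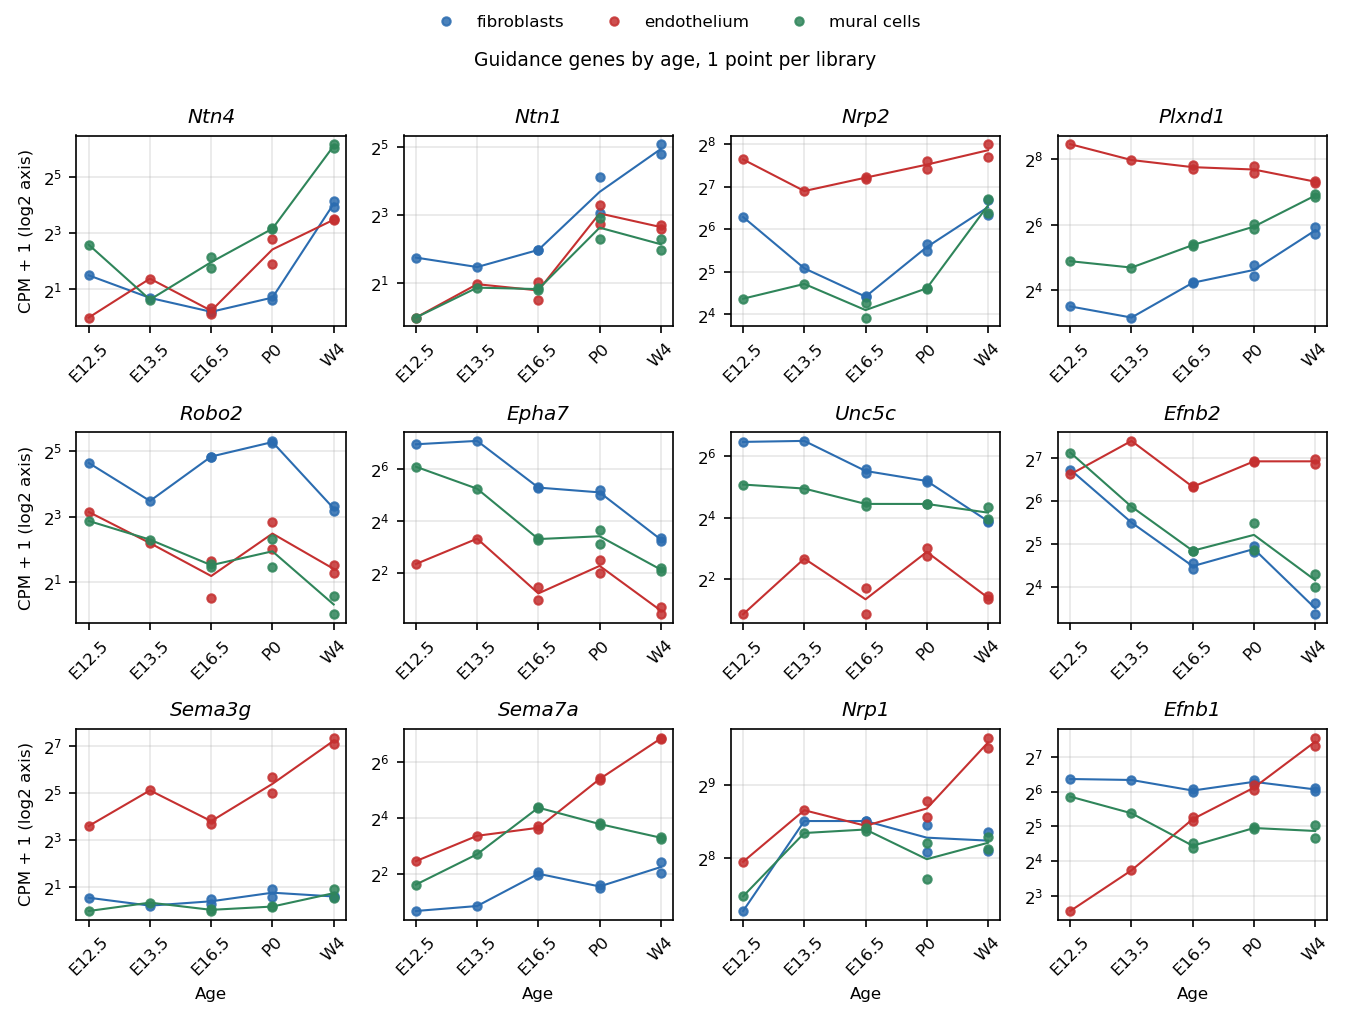
CPM + 1 on a log2 axis by age for 12 guidance genes in fibroblasts (blue), endothelium (red) and mural cells (green) of the age series, 1 point per library, lines joining the mean of each age. Ntn4 is highest at W4 in all 3 lineages, Robo2, Epha7 and Unc5c are lowest at W4 in fibroblasts, and Sema3g, Sema7a and Efnb1 are highest at W4 in endothelium.

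From P0 to W4, ages with 2 libraries each, fibroblasts gave 37 of 64 calls, 18 higher (25.3% of all genes) and 19 lower (26.1%), with a median of -0.04 against -0.03 over all genes, so that both shares lay near those of all genes. Ntn4 rose from 0.719 and 0.554 CPM to 16.7 and 14.3 CPM (log2 fold change 4.62 ± 0.19, adjusted p = 1.34e-05). In the tallies of subtypes given from here on, a subtype entered where any of its P0 or W4 libraries reached 10 CPM. A gene low at P0 could thus enter through W4 alone, and a gene low at W4 through P0 alone. The subtypes also share the same 2 libraries per age, so the tallies are descriptions and lend no support to a change. Ntn4 at W4 lay above P0 in 8 of the 8 fibroblast subtypes that entered. Ntn1, a secreted netrin, went from 16.3 and 7.29 CPM to 26.4 and 32.7 CPM (1.36 ± 0.33, adjusted p = 0.0136), and was higher in 8 of the 8 subtypes that entered. The netrin receptor Unc5c moved the other way, from 34.8 and 36.1 CPM to 14 and 13.6 CPM (-1.35 ± 0.07, adjusted p = 2.58e-05), lower in 9 of 10 subtypes.

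In fibroblasts Slit2 rose from 57.2 and 52.2 CPM to 73.4 and 88.3 CPM (0.59 ± 0.10, adjusted p = 0.00375), higher in 6 of 11 subtypes and lower in 2. In bulk, Slit2 was not called and its values went the other way, from 114 to 182.5 CPM (median 151.2) at P0 to 36.8 to 117 CPM (median 69.7) at W4 in gp38+CD26+ cells (-0.85 ± 0.89, adjusted p = 0.72) and from a median of 149.4 to 62.7 CPM in gp38+CD26- cells (-1.01 ± 0.84, adjusted p = 0.564). Slit3 rose from 77.9 and 95.3 CPM to 133.8 and 154.9 CPM (0.76 ± 0.12, adjusted p = 0.00243), higher in 9 of 11 subtypes. Robo2 fell by 2.15 on the log2 scale (SE 0.07, adjusted p = 8.79e-06), from 37 and 39 CPM to 8.94 and 8.07 CPM. It was lower in 10 of 10 subtypes, which could enter at 10 CPM through P0 alone. Robo1 was 28.9 and 30.1 CPM at P0 and 39.5 and 30.2 CPM at W4 (0.25 ± 0.10, adjusted p = 0.0866), higher in 4 of 11 subtypes and lower in 2. Over all gene and subtype pairs at 10 CPM or more, both W4 libraries lay above both P0 libraries in 34.4% and below in 31.5%, and among the guidance genes 190 of 540 pairs lay above and 199 below.

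Among the Eph receptors of fibroblasts, Epha7 went from 31 and 35.5 CPM to 9.24 and 8.34 CPM (-1.91 ± 0.09, adjusted p = 2.14e-05). It was lower in 10 of 10 subtypes, which could enter at 10 CPM through P0 alone. Epha3 went from 191.2 and 206 CPM to 126 and 117 CPM (-0.69 ± 0.06, adjusted p = 0.000173). The semaphorin receptors Plxnd1 and Nrp2 rose, Plxnd1 from 20.7 and 26.3 CPM to 59.4 and 51.7 CPM (1.25 ± 0.12, adjusted p = 0.000269) and Nrp2 from 44.3 and 49.5 CPM to 102 and 79.9 CPM (0.96 ± 0.10, adjusted p = 0.000426). Nrp1, the other neuropilin, read 269 and 349 CPM at P0 and 328 and 273 CPM at W4 (-0.03 ± 0.13, adjusted p = 0.871). It was higher in 3 of 11 subtypes and lower in 5, so the pooled value does not show that Nrp1 was level within subtypes. A list of dissociation stress genes was 12256 and 9267 CPM in P0 fibroblasts and 7624 and 8277 CPM at W4, and its part in the changes was not tested.

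In endothelium 15 of 48 genes were called from P0 to W4, 8 higher (11.5% of all genes) and 7 lower (12.7%), with medians of -0.10 over the guidance genes and 0.00 over all genes, and 7 were called without W4 replicate 1. Sema7a, a membrane-anchored semaphorin, rose from 41.9 and 40.4 CPM to 116 and 111.6 CPM (1.40 ± 0.12, adjusted p = 0.000109). Efnb1 rose from 71.5 and 65.1 CPM to 157 and 186.7 CPM (1.27 ± 0.13, adjusted p = 0.000256) and had been 4.94 CPM at E12.5. Sema3g, an endothelial class 3 semaphorin, went from 31 and 50.4 CPM to 160.8 and 132.5 CPM (1.78 ± 0.21, adjusted p = 0.000523), and Nrp1 from 377 and 442 CPM to 736 and 810 CPM (0.85 ± 0.11, adjusted p = 0.001).

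For these 4 genes both W4 libraries lay above both P0 libraries in 3 of 3 endothelial subtypes. A subtype low at P0 could enter this tally at 10 CPM through W4 alone, so it lends no support to the rise. In EnA itself Sema3g read 225 and 288 CPM at P0 and 628 and 599 CPM at W4, and in EnC Nrp1 read 432 and 465 CPM and 959 and 995 CPM. EnA made up 29 and 31 cells of the P0 libraries and 79 and 71 cells at W4. Plxnd1 fell from 190 and 219 CPM to 154.9 and 160.6 CPM (-0.44 ± 0.11, adjusted p = 0.0214), opposite to its direction in fibroblasts and mural cells, although the difference between lineages was not tested. Efnb2 and Ephb4 had log2 fold changes of -0.07 ± 0.10 (adjusted p = 0.655) and -0.05 ± 0.10 (adjusted p = 0.783). At W4 Efnb2 lay below P0 in 2 of 3 endothelial subtypes and above in 0, and Ephb4 lay above in 1 and below in 0. The pooled values thus do not show that Efnb2 was level within subtypes, and the part of the EnA cell numbers was not tested. Fibroblast markers in these endothelial cells were 1258 and 972 CPM at P0 and 587 and 740 CPM at W4. Pericyte markers were 128 and 285 CPM against 234 and 773 CPM, and the part of both lists in the changes was not tested.

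Mural cells had 26 of 59 calls, 6 higher (16.3% of all genes) and 20 lower (17.4%), with medians of -0.55 and 0.00, and 13 without W4 replicate 1. Ntn4 rose from 8.08 and 7.83 CPM to 64.9 and 71 CPM (2.97 ± 0.16, adjusted p = 4.91e-05), in VSM and in Pc alike. Nrp2 rose from 23.2 and 23.8 CPM to 104 and 83 CPM (1.87 ± 0.15, adjusted p = 0.000181) and Plxnd1 from 57.4 and 63.3 CPM to 120 and 114 CPM (0.84 ± 0.08, adjusted p = 0.000409). In Pc alone Nrp2 was 37.2 and 36.3 CPM at P0 and 162 and 143.8 CPM at W4. Efna4 fell by 3.11 on the log2 scale (SE 0.31, adjusted p = 0.00043), Epha3 by 1.67 (SE 0.17, adjusted p = 0.00045) and Sema5b by 1.16 (SE 0.18, adjusted p = 0.00266). The pericyte marker list was 4627 and 5959 CPM in P0 mural cells and 11866 and 11540 CPM at W4. Dissociation stress genes were 12532 and 12830 CPM against 6589 and 6293 CPM, and the part of both lists in the changes was not tested.

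Of 32 further genes of guidance signalling (netrin co-receptors, repulsive guidance molecules, Unc5 ligands and cytoplasmic effectors), 22 of 32 were called in fibroblasts from P0 to W4, 16 higher and 6 lower, 7 of 25 in endothelium (4 higher, 3 lower) and 11 of 29 in mural cells (5 higher, 6 lower). Of all genes 25.3% were higher and 26.1% lower in fibroblasts, 11.5% and 12.7% in endothelium, and 16.3% and 17.4% in mural cells. Rgma, a repulsive guidance molecule, was higher at W4 in fibroblasts (log2 fold change 1.02) and mural cells (1.44), and the adaptor Nck1 was higher in all 3 lineages (0.75, 0.95 and 1.15). Srgap1, a GTPase-activating protein of Slit-Robo signalling, was lower in endothelium (-0.94) and mural cells (-1.81) and higher in fibroblasts (0.52).

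The bulk libraries are other samples than the single-cell libraries and gave the same interval with 6 libraries per age, 5 for gp38+CD26+ at W4. The labels do not say whether the 2 data types share mice or a collection. Guidance genes called from P0 to W4 numbered 12 of 66 in CD31+ cells (5 higher, 3.77% of all genes, and 7 lower, 4.78%) and 9 in Ly51+gp38- cells (1 higher, 5.23%, and 8 lower, 4.21%). They numbered 10 in gp38+CD26+ cells (6 higher, 5.27%, and 4 lower, 2.62%) and 7 in gp38+CD26- cells (0 higher, 6.96%, and 7 lower, 3.76%). In the epithelium they numbered 6 in cTEC (5 higher, 6.51%, and 1 lower, 1.55%) and 2 in mTEC (0 higher, 1.65%, and 2 lower, 0.852%). Several of these calls rest on low counts or on few libraries: with calls kept only at 1 CPM or more in 3 libraries of either age, CD31+ cells had 4 calls in place of 12. In the gp38+CD26- comparison DESeq2 called 11 and a fit without the filter 4. On simulated counts this comparison recovered 22.4% of 4-fold and 34.9% of 8-fold changes, so a gene not called in bulk may still differ.

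Of the 37 genes called in single-cell fibroblasts, 5 were also called in gp38+CD26+ cells, all with the same sign (Unc5c, Epha7, Ntn4, Ephb1 and Robo2), against 12.2% of all genes called in single-cell fibroblasts that were also called and 11.5% with the same sign. In turn 6 were also called in gp38+CD26- cells, 5 with the same sign (Epha4, Epha7, Epha5, Efnb2 and Sema6a) and Ephb1 with the opposite sign, against 15.4% and 13.6% of all genes. Of the 37 genes, 25 had the same sign in gp38+CD26+ cells (73.9% of all genes) and 28 in gp38+CD26- cells (72.1%), shares near those of all genes. Epha7 in gp38+CD26+ cells had 74.1, 112.7 and 212 CPM as lowest, median and highest at P0 and 3.65, 10.4 and 15.4 CPM at W4 (-3.62 ± 0.97, adjusted p = 0.00822), and in gp38+CD26- cells 39.6, 126 and 170 CPM and 9.55, 18.7 and 23.3 CPM (-2.45 ± 0.85, adjusted p = 0.0424). The ages did not overlap in either gate. Robo2 in gp38+CD26+ cells went from 18.4, 47.9 and 64.1 CPM to 0, 0.137 and 4.69 CPM (-5.22 ± 1.51, adjusted p = 0.0166), and Unc5c from 7.28, 34 and 53.9 CPM to 0, 0 and 2.84 CPM (-5.49 ± 1.27, adjusted p = 0.00188).

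Nrp1 moved in opposite directions in the bulk populations. In CD31+ cells it rose from 390, 842 and 1383 CPM to 1493, 1641 and 1723 CPM (1.0 ± 0.31, adjusted p = 0.0242), and in gp38+CD26+ cells it went from 853, 903 and 1589 CPM to 111, 207 and 400 CPM (-2.03 ± 0.34, adjusted p = 7.99e-06). In gp38+CD26- cells it was 1312, 1507 and 1938 CPM at P0 and 992, 1166 and 1517 CPM at W4 and was not called. The age difference of the 2 fibroblast gates differed by -1.88 ± 0.45 (interaction, adjusted p = 0.00742). That test called 3 genes, 2 higher (1.44% of all genes; Epha2 and Ephb1) and 1 lower (1.78%; Nrp1). Without replicate 1 of gp38+CD26+ at W4 the interaction gave 5 calls. Single-cell fibroblasts, which hold both capsular and medullary subtypes, gave -0.03 (adjusted p = 0.871).

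Sema7a was near the floor in CD31+ cells, with 0, 0.402 and 14 CPM as lowest, median and highest at P0 and 0.0742, 0.640 and 1.36 CPM at W4. Its bulk difference was not called (-2.04 ± 1.87, adjusted p = 0.673), and its mean at P0 rests on 1 library. Sema3g in CD31+ cells was 4.05, 10.3 and 32.5 CPM at P0 and 6.59, 28.2 and 51.7 CPM at W4 and was not called. In CD31+ cells 2 of the 15 genes called in single-cell endothelium were also called, Nrp1 with the same sign and Sema4a with the opposite sign (17.0% of all genes also called, 16.4% with the same sign), and 10 of the 15 had the same sign (81.7% of all genes). Sema4a was 5.11 and 4.00 CPM at P0 and 0.310 and 0 CPM at W4 in single cells, while in bulk 1 of 12 CD31+ libraries held it, at W4 with 6.97 CPM. In Ly51+gp38- cells 21 of the 26 genes called in single-cell mural cells had the same sign (77.0% of all genes). The 5 also called had the same sign (Plxna3, Sema6c, Ephb2, Epha3 and Sema6a), against 14.8% of all genes also called and 14.1% with the same sign. Ntn4 was 0, 0.137 and 2.75 CPM at P0 and 2.8, 6.3 and 13.9 CPM at W4, groups that did not overlap although the gene was not called.

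**Figure D4:**
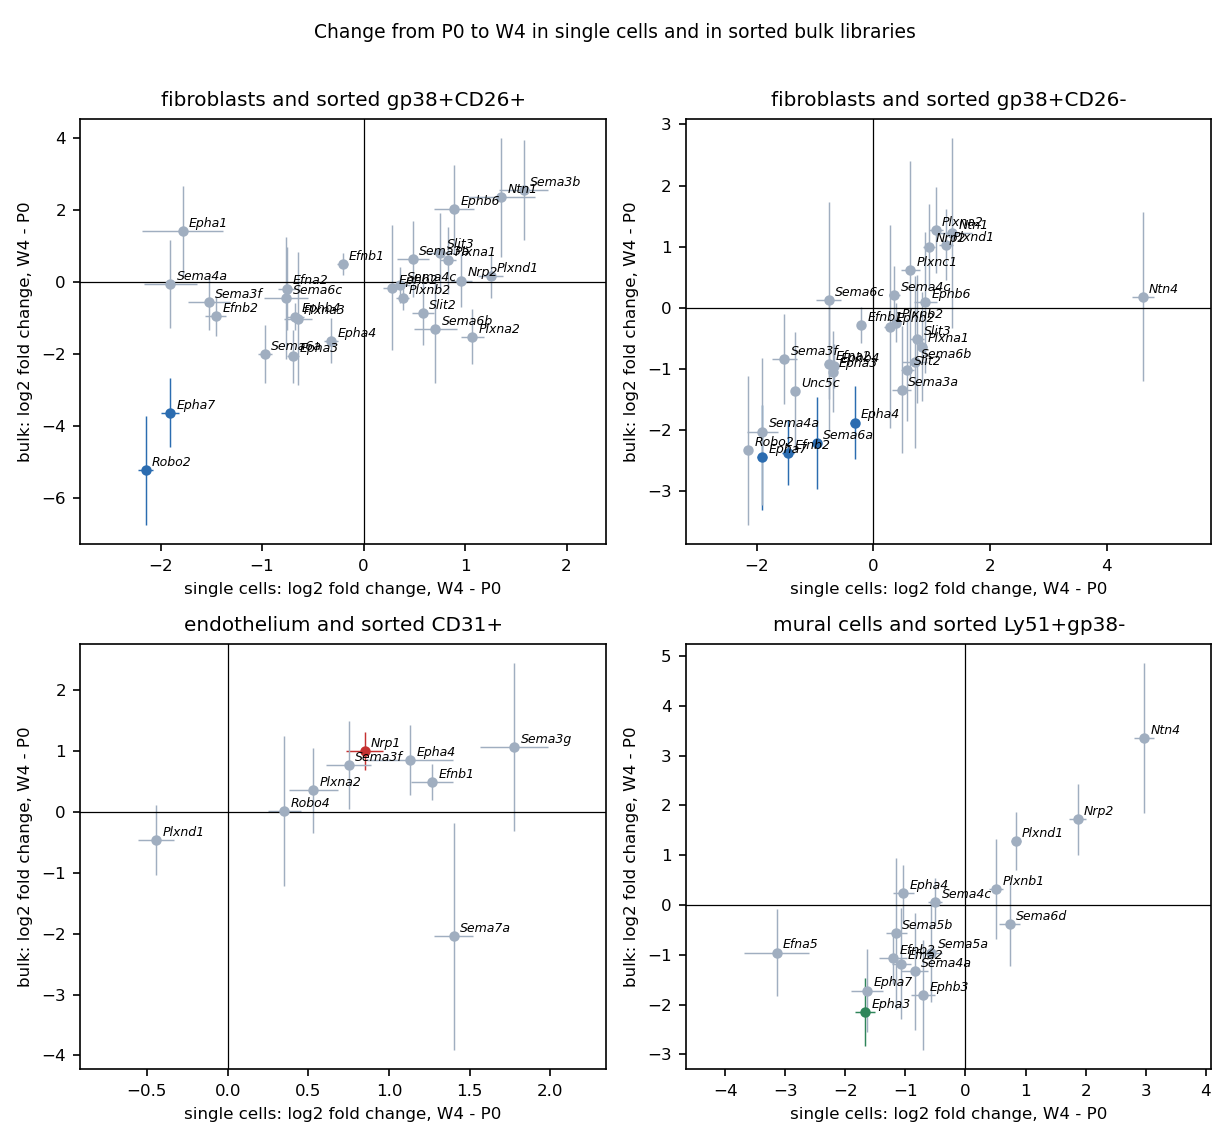
Log2 fold change from P0 to W4 (± SE) in single cells (horizontal) and in the matching bulk population (vertical) for guidance genes called in the single cells and above 0 in at least 3 bulk libraries of each age. Coloured points were called in both, grey points in the single cells alone; Epha7, Robo2 and Efnb2 lie in the lower left in the fibroblast panels, and Sema7a lies in the lower right in the endothelial panel.

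No guidance gene was called between HET and WT newborns. By edgeR's quasi-likelihood test at an adjusted p under 0.05, 0 of 48 genes passed in fibroblasts (9 at an unadjusted p under 0.05; 0.00% of all genes called), 0 of 25 in endothelium (1; 0.0126%), 0 of 35 in mural cells (2; 0.112%) and 0 of 51 in epithelium (5; 0.00%). Of all genes 8.46%, 3.43%, 6.03% and 6.20% had an unadjusted p under 0.05 in these lineages, in the same order. In single subtypes it called 0 of 331 gene and subtype pairs over 52 genes (37; 0.0481%), with 6.72% of all pairs at an unadjusted p under 0.05. DESeq2 also called 0 in each. The 95% interval of the fold change lay within 2-fold in either direction for 28 of 48 genes in fibroblasts, 15 of 25 in endothelium, 24 of 35 in mural cells and 26 of 51 in epithelium. The intervals of the other genes reached past 2-fold, so a change of that size is not excluded for them.

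The lowest unadjusted p of the 4 lineages belonged to Efnb1, an ephrin-B ligand, in fibroblasts. Its libraries read 57.2, 38.3 and 52.6 CPM in HET and 78.6, 75.9 and 77 CPM in WT. All HET values lay under all WT values, a separation not counted over all genes, and the difference did not pass the correction. The log2 fold change was -0.71 ± 0.20 SE (95% interval -1.13 to -0.29, adjusted p = 0.309, edgeR). In endothelium, mural cells and epithelium Efnb1 gave -0.30 ± 0.25, -0.30 ± 0.24 and -0.17 ± 0.22, none passing. Nrp2 in fibroblasts was 54.7, 50.5 and 63.6 CPM in HET and 83.1, 91.3 and 57.5 CPM in WT (-0.49 ± 0.20, adjusted p = 0.546), groups that overlap.

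In newborn endothelium the vascular guidance genes had these values. Robo4 was 220, 226 and 186 CPM in HET and 190.8, 183 and 176 CPM in WT (0.19, 95% interval -0.26 to 0.64). Efnb2 was 309, 292 and 310 CPM against 323, 281 and 236 CPM (0.11, -0.34 to 0.57), and Nrp1 was 513, 366 and 368 CPM against 405, 449 and 376 CPM (0.00, -0.48 to 0.49). Ephb4 was 86.3, 63.1 and 108.4 CPM in HET and 118.7, 128 and 95 CPM in WT (-0.41, -0.93 to 0.10). Sema3g, which rose with age, was 15.7, 36.4 and 25.9 CPM in HET and 37, 47.8 and 42.3 CPM in WT (-0.62, -1.26 to 0.02, adjusted p = 0.999 by edgeR). Every HET library lay under every WT library, but the HET values rest on 6, 34 and 17 UMIs and the WT values on 19, 25 and 77. The share of all genes with such a separation was not counted. Sema4c had the lowest p in this lineage, with 62.8, 63.1 and 47.3 CPM in HET and 35, 40.1 and 34.6 CPM in WT (0.65, 0.09 to 1.20, adjusted p = 0.999).

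In epithelium 37 of the 51 fold changes were positive and 14 negative, with a median of 0.20 against 0.03 over all genes. Slit2 was 9.08, 12.6 and 12.4 CPM in HET and 9.15, 7.44 and 3.32 CPM in WT, and Nrp1 29.2, 76.8 and 42.9 CPM against 38.4, 26.5 and 22.7 CPM, neither of which passed the correction (adjusted p = 0.689 for both). Fibroblast markers in these epithelial cells summed to 353, 1234 and 625 CPM in HET and 599, 376 and 597 CPM in WT, highest in the HET library that also held the highest Nrp1, and their part in the shift was not tested. Robo4, the endothelial Robo, had the largest of these fold changes at an unadjusted p under 0.05 (1.63 ± 0.65, adjusted p = 0.689), with 2.76, 7.96 and 2.52 CPM in HET and 3.2, 0.62 and 1.42 CPM in WT. Of its UMIs in HET epithelium 60 came from replicate 2, 7 from replicate 1 and 10 from replicate 3. Endothelial markers in these cells summed to 54.1, 161.9 and 79.2 CPM in HET and 67.7, 32.1 and 48.5 CPM in WT, highest in the same HET library, and their part was not tested. The interaction of genotype with lineage between fibroblasts and endothelium called 0 of 46 genes (7 at an unadjusted p under 0.05, against 6.81% of all genes; 0.149% of all genes called), and DESeq2 called 0.

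**Figure D5:**
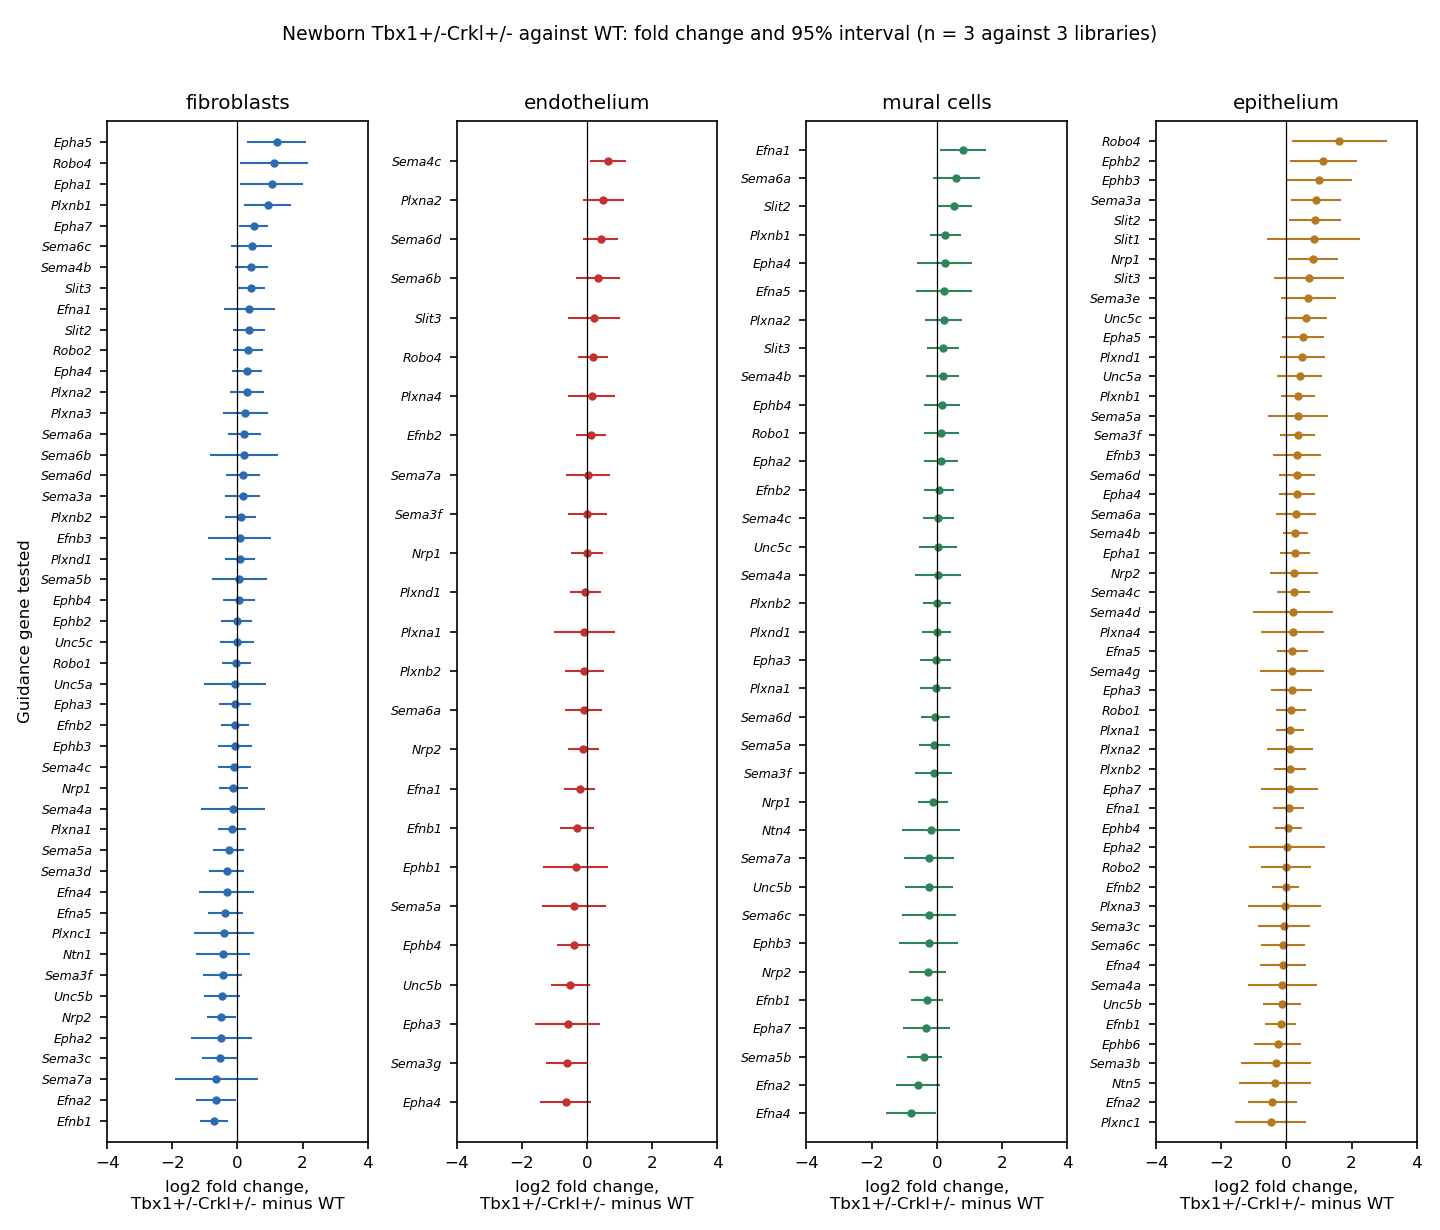
Log2 fold change between Tbx1+/-Crkl+/- and WT newborns with 95% interval for each guidance gene tested in 4 lineages, sorted by size (3 against 3 libraries). The values run from -0.71 (Efnb1) to 1.20 (Epha5) in fibroblasts and from -0.66 (Epha4) to 0.65 (Sema4c) in endothelium, and none passed the adjusted threshold.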

How the data were processed

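Single-cell RNA-seq was made by the submitters with Cell Ranger 3.1.0, and bulk RNA-seq used STAR 2.5.3a and HTSeq according to the submitters' processing notes, which name mm10. Both data types were deposited by the authors as raw counts (UMI counts per cell, read counts per gene). By the study's methods, a cell entered with over 1000 genes detected and a mitochondrial share below 5%, and the authors removed doublets and Ptprc+ clusters, and deposited the subtype names used here. The deposited newborn libraries hold cells from 876 to 901 genes upwards, below that cut. Samples that the labels number as replicates were taken as separate samples, though nothing in the labels says that they are separate animals. The E16.5 pair differed less (mean chi-square per gene 2.44 in fibroblasts and 1.86 in mural cells) than the P0 pair (37.8 and 20.5), in endothelium 8.15 against 9.69, and this spread enters the tests over ages.

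UMIs were summed per library and lineage or subtype (at least 20 cells), and edgeR 4.0.16 (R 4.3.3) was fitted by quasi-likelihood across all genes with TMM factors and Benjamini-Hochberg adjustment over all genes tested. Calls needed an adjusted p under 0.05, and in bulk also a log2 fold change of 1 or more in size. DESeq2 1.42.0, RLE factors, no filter, left-out libraries, and the replicate number as a term were alternatives. Levels used subtypes with at least 5 cells in a library. Of 39179 bulk IDs 37607 had a symbol, and the rest held 0.412% of counts. Entries that name no gene held 7.81 to 29.4% and were left out, as was 1 library under 1000000 counts. Bulk libraries at 0 are limited by depth, with a floor of 3 counts over the group, and intervals cover the spread between libraries.

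The members and gene lists were chosen with earlier results of these data known. A rule set which genes could be named: every called member up to 8 in a test, otherwise the 8 with the smallest adjusted p and the ligand-receptor pairs of vessels. The text does not name all of them. The genes called in cTEC and mTEC from P0 to W4, for example, are only counted. Other names were chosen after their values were seen. On simulated counts the HET test in fibroblasts (11734 genes) recovered 6.15% of 1.5-fold, 49.2% of 2-fold and 95.5% of 4-fold changes. The bulk test of W4 against P0 in gp38+CD26- cells (19756 genes) recovered 3.08% of 2-fold, 22.4% of 4-fold and 34.9% of 8-fold changes. Same-numbered HET and WT libraries had correlations of deviations from -0.43 to 0.14, and were not all over 0.1, so the numbers were not used to pair libraries. A shared litter or day was not tested.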

Additional observations from a re-analysis of the deposited data

Results flagged for a closer look

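Single bulk libraries stood apart from the rest of their group of 5 or 6 by Dixon's test in 14 of 287 groups looked at over 23 genes. By chance about 1 in 20 groups would do so, and the number found is near that. Efna1 was 1020 CPM in CD31+ P0 replicate 1 (next 736), 411 CPM in CD31+ W4 replicate 5 (next 505) and 134.2 CPM in cTEC W4 replicate 5 (next 88.1). Nrp1 was 771 CPM in Ly51+gp38- P0 replicate 5 (next 1094) and 1589 CPM in gp38+CD26+ P0 replicate 4 (next 1063), and Nrp2 was 198 CPM in CD31+ W4 replicate 6 (next 154).

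Slit2 was 77.2 CPM in mTEClo W4 replicate 4 (next 15.9), Slit3 was 52.2 CPM in Ly51+gp38- W4 replicate 6 (next 31.3), and Epha3 was 0 CPM in mTEC W4 replicate 3 (next 15.3). Sema3c was 99.9 CPM in cTEC W4 replicate 6 (next 28.9) and 592 CPM in gp38+CD26+ P0 replicate 5 (next 354). Unc5c was 74.6 CPM in gp38+CD26- P0 replicate 2 (next 42.9). Plxnb1 was 70.4 CPM in mTEC W4 replicate 1 (next 27.8) and 8.64 CPM in mTEChi W4 replicate 6 (next 23.2).

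The age difference was not the same in the 2 fibroblast gates for 3 genes by edgeR's interaction test. Nrp1 gave -1.88 (adjusted p = 0.00742), and Epha2, an Eph receptor, gave 8.22 (adjusted p = 0.0159). Epha2 was low in single-cell fibroblasts, with 55 and 70 UMIs at P0 and 32 and 42 at W4. Its bulk library values are not given here, so 8.22 is not read as a size. Ephb1 gave 14.4 (adjusted p = 0.00694), a fitted value that rests on libraries at 0 and is no measure of size.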

How the results depend on the processing

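Of the 415 called values of named genes that were refitted, none with a fold change turned its direction under the alternatives run. The F tests over ages give no direction, so for them only the call could be compared. Counts of calls that moved by more than 1.5 times were the following. DESeq2 called 11 guidance genes between ages in gp38+CD26- cells (7 by edgeR), 8 between the CD26 gates at P0 (3) and 9 in the interaction of age with CD26 (3). Without a filter on low counts, gp38+CD26- cells gave 4 and mTEC 1 (2 with it). With calls kept only at 1 CPM or more in 3 libraries of either side, an alternative chosen after seeing the data, CD31+ cells gave 4 between ages (12) and cTEC against mTEC at W4 gave 12 (19). Without E12.5 and E13.5, which removes samples, mural cells gave 34 over ages (52) and the gene and subtype pairs 388 (604). The cause of the other moves was not tested.

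With 1 library left out, calls from P0 to W4 ranged from 29 to 45 in fibroblasts, 7 to 16 in endothelium and 13 to 33 in mural cells, both lowest values without W4 replicate 1. Over ages they ranged from 51 to 61, 30 to 36 and 43 to 55, and over pairs from 520 to 645. In bulk, only gp38+CD26+ W4 libraries (n = 5) were left out in turn, and calls in the tests that use this group ranged from 35 to 38 (CD31+, W4), 15 to 16 (Ly51+gp38-, W4), 11 to 12 (CD26 gates, W4), 9 to 11 (gp38+CD26+, age) and 3 to 5 (interaction, the highest without replicate 1). The genotype tests stayed at 0 to 0, and the same highest subtype was found for 43 to 47 of 49 genes, against 36 with cells pooled over libraries.

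With the replicate number as a block, the genotype tests gave 0 calls in each lineage. The block over ages, chosen after seeing the data, gave 55, 35 and 53 over ages and 35, 15 and 25 from P0 to W4 in fibroblasts, endothelium and mural cells. With the prefix of the bulk labels (TXCK or DFCK) as a covariate, 7 calls of named genes were lost and no count moved by over 1.5 times. Over all comparisons of these 415 values with an alternative, 304 lost the call and 4180 kept it. Those that kept it had the same direction where the test gives one.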
